A study of Mus musculus with 12 samples.

Results

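Differentiated 3T3-L1 cells that had received alpha-linolenic acid (ALA) together with a delta-6-desaturase (D6D) inhibitor were compared with vehicle-treated cells, a comparison that the study's design text does not list. Cells of the mouse line 3T3-L1 are fibroblast-like precursors that, once induced with hormones, store lipid and become adipocytes. Cells given both agents had 50 µM ALA, in medium for which 2% fatty-acid-free albumin is stated, and 5 µM inhibitor. Control cells had the vehicles, ethanol and DMSO. Both groups were treated from the start of differentiation (day 0) until RNA was taken on day 8, with insulin in the medium after the induction. The sources used here do not name the inhibitor and do not say whether albumin, ethanol or DMSO was matched between the groups. Each group had 3 arrays, from cells of passage 6, 7 and 8, and the differences were taken within passage. The 6 arrays compared were part of 12, since ALA alone and inhibitor alone also had 3 arrays each. Genes were described where their mean signal over the 6 arrays was above the mean of the array medians, a log2 signal of 6.2, which left 10026 of 19480 measured genes. At that limit, Pnmal1 and Fahd1 lay just outside with differences between the groups of 0.18 and 0.04, and Irs3 and Arhgap45 lay just inside with 0.09 and -0.09 (log2).

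D6D, encoded by Fads2, performs the first step that turns ALA, a dietary omega-3 fatty acid, into longer and more unsaturated fatty acids such as eicosapentaenoic acid. An inhibitor of D6D is meant to close that route at its entry, so that ALA stays ALA. In adipocytes, polyunsaturated fatty acids are known as ligands of PPAR receptors and of the surface receptor encoded by Ffar4, and as restraints on the SREBP transcription factors that drive synthesis of sterols and fatty acids. An adipocyte also makes glycerol for triacylglycerol from small molecules, through the enzyme encoded by Pck1, and secretes hormones, binding proteins and acute-phase proteins into the blood.

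The arrays gave 1 log2 signal for each of 22104 transcript clusters, and a difference of 1 on this scale is a 2-fold difference in linear signal. Array medians lay between 6.14 and 6.27. The ALA array of passage 7, which enters the comparison of both agents with control only through the shared estimate of the spread, stood apart from the others, with correlations over clusters of 0.976 to 0.987 against 0.989 to 0.994 among the other 11 arrays. The 6 measured adipocyte markers, among them Adipoq, Pparg and Plin1, had signals between 9.92 and 13.08. The measured markers of macrophages (Ptprc, Adgre1 and Csf1r) and of endothelium (Pecam1, Cdh5 and Kdr) all lay below the array median. Of 4 muscle markers Des (7.80) lay above it, and Myog, Myod1 and Acta1 below. Of 3 measured markers of osteoblasts or chondrocytes, Acan and Col2a1 lay above it, at up to 6.52, and Sp7 below. Averaged over each list per array, muscle markers had 6.12 to 6.33 with both agents and 5.97 to 6.35 in control cells, and those of osteoblasts or chondrocytes 5.85 to 6.08 with both agents and 5.77 to 6.04 in control cells. None of the markers in these check lists passed the threshold used below, and their part in the results was not tested. A longer list of preadipocyte and stromal markers is described further on. The passages belong to 1 cell line, so the tests measure how cultures of 1 line vary. The arrays measured bulk RNA, in which fewer cells of a type and less RNA per cell cannot be told apart.

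With both agents, 24 genes were higher and 86 were lower than in control cells past the threshold that the study's design text names, an unadjusted p under 0.01, in a limma model with the passage as a block. Over all 22104 clusters, 1.51% passed, 0.498% higher and 1.01% lower. The genes above the median passed in 1.1%, 0.239% higher and 0.858% lower, so both shares lay below those over all clusters. Their 110 stood against 100 that the threshold alone would give, so the total was near the level that the threshold sets. That level is nominal, and the count moved with the settings. With only clusters above the median fitted, 200 genes passed. No cluster passed a Benjamini-Hochberg adjusted p under 0.05 in this limma fit, and 482 of the genes above the median had an unadjusted p under 0.05, against 501 that this level alone would give. The smallest adjusted p was 0.12, for Apod. In the account below, "rose", "fell" and "passed" refer to the unadjusted threshold. Without the passage block, 29 genes passed, 7 of them higher and 22 lower.

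Most genes differed little. The median difference was 0.01, and 99.5% of the genes lay within 0.5 of 0 on the log2 scale, with a median standard error of 0.12. Of the 10026 genes, 5250 (52.4%) had a difference above 0 and 4776 below 0. The counts by direction in the gene lists below are to be read beside this share. Counts of list genes that rose or fell are to be read beside 0.239% and 0.858% of the 10026 genes. Differences of at least 0.5 were found for 6 genes on the higher side and 48 on the lower side. The genes that fell had a median difference of -0.49 and reached -1.02, while those that rose had a median of 0.37 and reached 0.49. All 110 differed in the same direction in each of the 3 passages, which the model's block favours. The signals of the groups did not overlap for 18 of the 24 higher genes and 34 of the 86 lower genes, where 10.3% of all clusters had groups that did not overlap. The threshold favours genes of that kind, and nothing is read from this count. Of the higher genes, 4 (Rfc5, Ctu1, Borcs6 and Mcrip2) had a control mean below the array median and were described only through their level with both agents. Of the lower genes, 3 (Fmod, Efnb3 and Ephb6) had a mean with both agents below it and were described only through control. Mcrip2, Efnb3 and Ephb6 are named here after their values were seen.

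**Figure D1:**
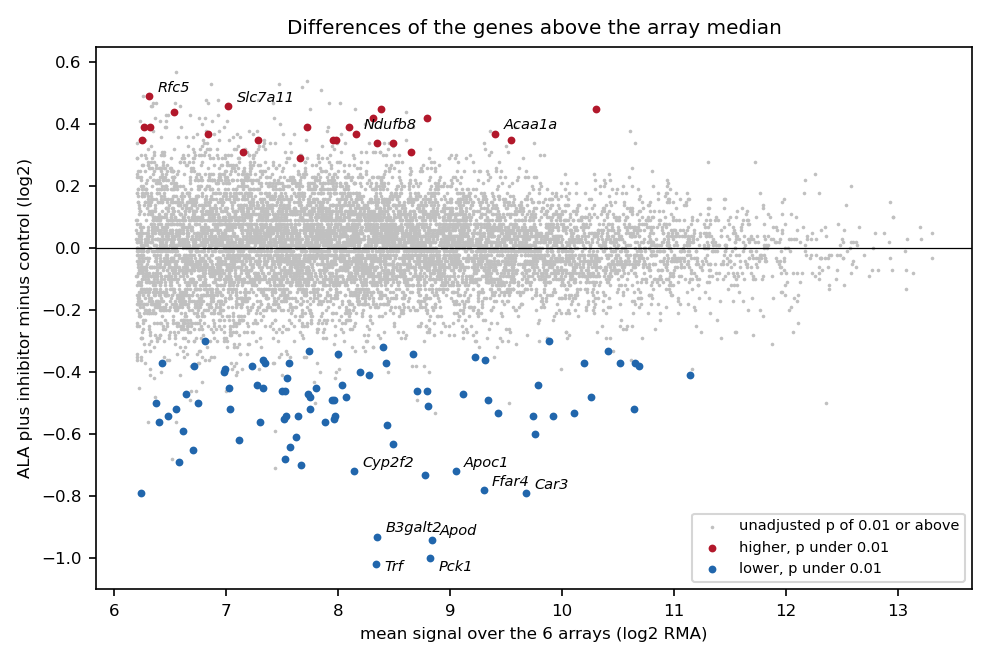
Difference between ALA plus inhibitor and control (vertical axis, log2) against the mean signal over the 6 arrays (horizontal axis, log2 RMA) for the 10026 genes above the array median, with red points for the 24 genes that were higher and blue points for the 86 that were lower past the unadjusted threshold of 0.01. The lower side reaches -1.02 (Trf), while the red points end at 0.49 (Rfc5), and grey points on the higher side reach 0.57.

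The gene with the largest difference was Trf, which encodes transferrin, the iron carrier of plasma. Its log2 signals were 8.00, 7.83 and 7.68 in the cells of passage 6, 7 and 8 given both agents, against 9.07, 9.24 and 8.25 in control cells of the same passages. All 3 arrays with both agents lay below all 3 control arrays. The fall was 2.02-fold (log2 difference -1.02, SE 0.24, adjusted p = 0.461, n = 3 arrays per group, limma). Without the passage 7 array with both agents or the passage 7 control array, Trf differed by -0.87 and -0.90 and did not pass. Steap4, a metalloreductase of the plasma membrane that reduces iron and copper, also fell (-0.69, SE 0.18), but not without the passage 7 or 8 array with both agents (-0.60 and -0.68) or the passage 6 or 7 control array (-0.59 and -0.68).

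Pck1, the cytosolic phosphoenolpyruvate carboxykinase that feeds glycerol synthesis in adipocytes, had signals of 7.91, 8.31 and 8.75 with both agents and 9.06, 9.26 and 9.65 in control cells. The signals were higher at later passages in both groups, and within each passage the cells with both agents lay about 1 unit lower. The log2 difference was -1.0 (SE 0.19, adjusted p = 0.41, limma). The adjoining member of the glycerol list, Aqp7, a channel that lets glycerol leave the adipocyte, differed by -0.50 and did not pass. Of the 7 genes of glycerol and glyceroneogenesis above the median, Pck1 alone passed, and their median difference was 0.04.

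Apod had the smallest p of all clusters. It encodes apolipoprotein D, a lipocalin that carries small lipids such as arachidonic acid. Its signals were 8.07, 8.34 and 8.70 with both agents, against 9.15, 9.11 and 9.66 in control cells, with no overlap in spite of the spread between passages. The log2 difference was -0.94 (95% interval -1.18 to -0.70, adjusted p = 0.12, limma). B3galt2, a galactosyltransferase of the Golgi, had 7.64, 7.72 and 8.30 with both agents and 8.65, 8.73 and 9.07 in control cells (-0.93, SE 0.17, adjusted p = 0.41). Cyp2f2, a cytochrome P450 best known from mouse lung, fell by 0.72 on the log2 scale (SE 0.10, adjusted p = 0.361). Apod, B3galt2, Cyp2f2 and Apoc1, which is described with the LXR targets, were the named genes that stayed past the threshold under all 25 alternative settings.

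**Figure D2:**
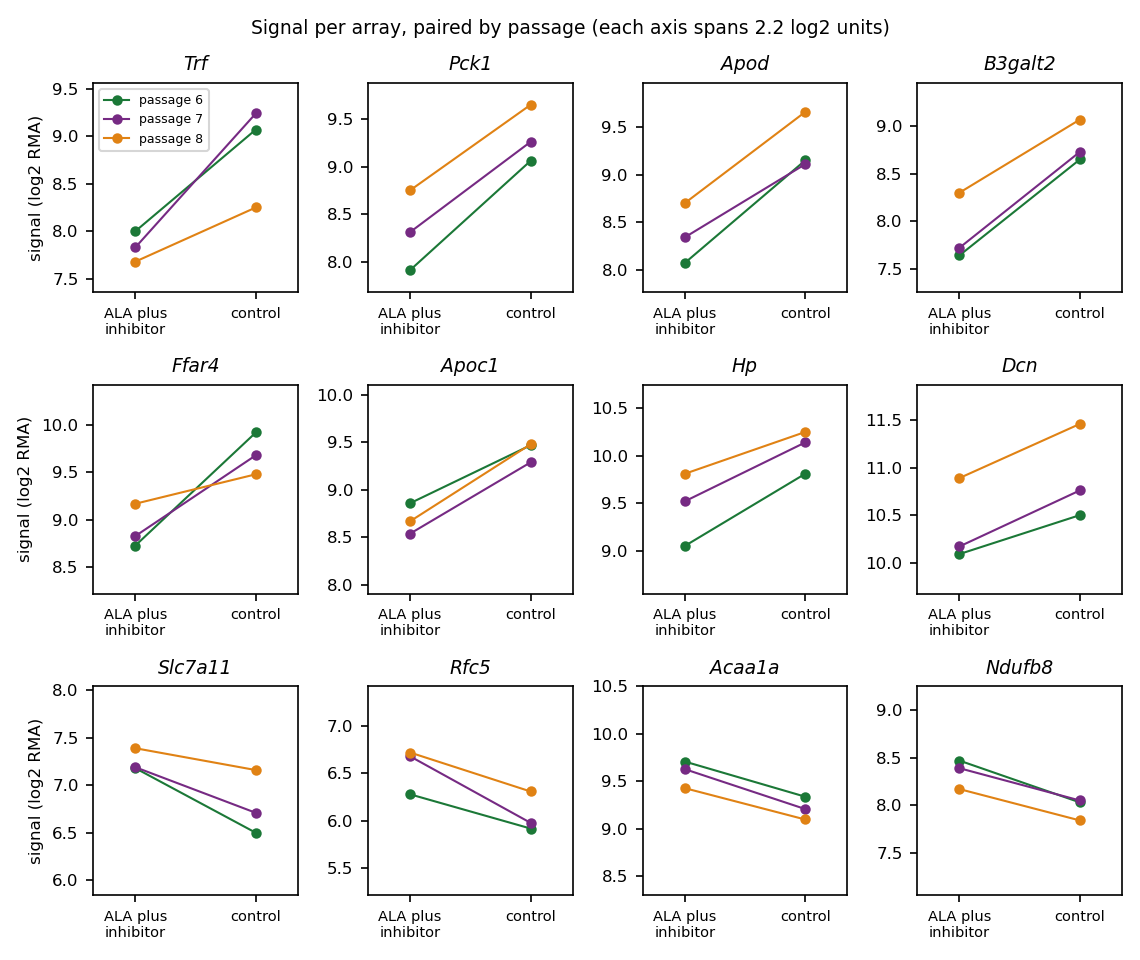
Log2 RMA signal of 12 genes on the arrays of ALA plus inhibitor (left in each panel) and control (right), with a line joining the arrays of 1 passage. The 8 genes of the upper rows ran upward to control in each passage, most steeply for Trf (a mean difference of -1.02 between ALA plus inhibitor and control), and the 4 genes of the bottom row ran downward, Slc7a11 among them (0.46).

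Genes that mark the adipocyte were mostly on the lower side. Of 23 adipocyte markers above the median, 19 had a difference below 0 and 4 above 0, where 52.4% of all genes above the median lay above 0. The median of the list was -0.13 against 0.01 over all genes. None rose and 4 fell, where 0.858% of all genes above the median fell. The 4 were Pck1, Car3, Ffar4 and Nrg4. Car3, a carbonic anhydrase abundant in fat, had 9.04, 8.71 and 10.10 with both agents and 9.77, 9.98 and 10.48 in control cells. The groups overlap through the passage 8 array with both agents, but every passage differed downward, by -0.79 on average (SE 0.17, adjusted p = 0.426). Car3 and Pck1 did not pass without the passage block.

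Ffar4, the receptor for long-chain unsaturated fatty acids, ALA among its ligands, had signals of 8.73, 8.83 and 9.17 with both agents, against 9.92, 9.68 and 9.48 in control cells. All values with both agents lay below all control values, and the gap was smallest at passage 8. The difference was -0.78 (SE 0.23, adjusted p = 0.614). Ffar4 did not pass once the passage 6 or 7 array of either group was left out, with differences of -0.75 and -0.71 without those with both agents and -0.54 and -0.81 without those of control. Nrg4, a growth factor secreted by fat cells, fell by 0.56 on the log2 scale (SE 0.12, adjusted p = 0.426).

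The defining markers of the fat cell moved little. Adipoq, the adiponectin gene, averaged 13.10 ± 0.09 with both agents and 13.06 ± 0.10 in control cells (SD, n = 3 arrays each), a difference of 0.03 (95% interval -0.16 to 0.23). Pparg, the receptor that directs adipogenesis, differed by -0.16 (-0.37 to 0.04), and Fabp4, a fatty acid carrier, by -0.07. Cebpa, the partner of Pparg, was the nearest of these to the threshold. Its signals of 9.79, 9.81 and 9.83 with both agents all lay below the 10.03, 10.04 and 10.04 of control cells, but it did not pass (-0.23, 95% interval -0.43 to -0.02). Lep, the leptin gene, differed by -0.22 and did not pass. Summed over the 6 defining adipocyte markers, the mean signal per array was 11.65 to 11.85 with both agents and 11.78 to 11.93 in control cells. The part of this difference in the results for single fat-cell genes was not tested.

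None of 17 adipogenic transcription factors above the median passed, with a median difference of -0.05. Arxes1, a gene of the endoplasmic reticulum that in mouse is induced during adipogenesis, fell by 0.65 on the log2 scale (SE 0.13, adjusted p = 0.426), and it did not pass without the passage block. It has a near-identical neighbour, Arxes2, so probes of the array may read both. Of 6 thermogenic markers above the median, none passed, and 0 had a difference above 0 (median -0.22).

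Genes of the fibroblast-like precursor cell were also lower. Of 10 preadipocyte and stromal markers above the median, 9 had a difference below 0, with a median of -0.19, and Acta2, S100a4 and Sox9 fell. Among the 10026 genes, 0.858% fell. Acta2, the smooth muscle actin of activated fibroblasts, had 9.25, 9.32 and 10.95 with both agents and 9.81, 10.02 and 11.28 in control cells. The passage 8 arrays were far above the others in both groups, so the groups overlap, and the difference of -0.53 (SE 0.11, adjusted p = 0.426) rests on the pairing by passage and did not pass without the block. S100a4, a calcium-binding protein of fibroblasts, and Sox9, a transcription factor of precursor cells, each differed by -0.48 and also did not pass without it. S100a4 was lost without the passage 7 array with both agents (-0.42) or the passage 6 control array (-0.44), and Sox9 without the passage 6 or 7 array of either group (-0.40 and -0.44 without those with both agents, -0.42 and -0.49 without those of control). Dlk1, which holds preadipocytes undifferentiated, had 11.06, 11.25 and 11.52 with both agents against 11.53, 11.57 and 11.59 in control cells, with no overlap, but it did not pass (-0.29, 95% interval -0.51 to -0.07). Adipocyte markers and precursor markers thus both lay lower on average, and their part in each other's differences was not tested. Over the 4 measured markers of preadipocytes or fibroblasts that served as a check (Dlk1, Thy1, Pdgfrb and Cd34, the last below the array median), the mean signal per array was 8.99 to 9.22 with both agents and 9.15 to 9.37 in control cells.

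Matrix genes divided. Of 22 extracellular matrix genes above the median, 17 had a difference below 0 (median -0.05), and 2 fell, against 0.858% of the 10026 genes. Dcn, decorin, had 10.09, 10.17 and 10.89 with both agents and 10.50, 10.76 and 11.46 in control cells (-0.52, SE 0.12, adjusted p = 0.46). Lum, lumican, which like decorin is a small proteoglycan that binds collagen fibrils, fell by 0.46 on the log2 scale (SE 0.10, adjusted p = 0.426). The fibrillar collagens differed by -0.19 for Col1a1, 0.00 for Col1a2 and -0.04 for Col3a1, and none of them passed. Among the 14 genes that fell most, Mfap4 (a microfibril-associated protein, -0.73), Osr2 (a mesenchymal transcription factor, -0.70), Prss23 (a secreted serine protease, -0.68) and Fmod (fibromodulin, -0.79) are also known from connective tissue. For Fmod the signals ran from 5.33 to 6.74 with both agents and from 6.28 to 7.33 in control cells, so the groups overlap. Fmod was described only through its control level, since its means were 5.84 with both agents and 6.64 in control cells around an array median of 6.20. None of Fmod, Mfap4, Osr2, Prss23, Dcn or Lum passed without the passage block. Mfap4 was also lost without the passage 7 array with both agents (-0.62) or the passage 6 control array (-0.61), and Prss23 without the passage 7 array with both agents (-0.51) or of control (-0.63).

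LXR is the nuclear receptor for oxidised sterols, and its targets carry cholesterol out of cells and remodel lipoproteins. Of 9 LXR targets above the median, 8 had a difference below 0 (median -0.20), and 2 fell, against 0.858% of the 10026 genes. Apoc1, an apolipoprotein, had 8.86, 8.54 and 8.67 with both agents, against 9.47, 9.29 and 9.48 in control cells. The groups lay clearly apart, and the difference was -0.72 (SE 0.12, adjusted p = 0.41). Pltp, the phospholipid transfer protein, had 9.91, 9.41 and 9.62 with both agents and 10.38, 10.19 and 10.00 in control cells (-0.54, SE 0.12, adjusted p = 0.428). Apoe (-0.31) and Mylip (-0.28), a ubiquitin ligase, did not pass. The cholesterol exporters Abca1 (0.06) and Abcg1 (-0.20), and Nr1h3 (-0.01), which encodes LXR alpha itself, did not pass either.

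Haptoglobin and the orosomucoids, acute-phase proteins that fat cells secrete, fell. Of 12 inflammatory and acute-phase genes above the median, 10 had a difference below 0 (median -0.11), and Hp, Orm1 and Orm2 fell. Among the 10026 genes, 0.858% fell. Hp, haptoglobin, which binds free haemoglobin, had 9.05, 9.52 and 9.81 with both agents and 9.81, 10.14 and 10.25 in control cells. The array with both agents of passage 8 equalled the lowest control array, and each passage differed downward (-0.60, SE 0.11, adjusted p = 0.41). The orosomucoids Orm1 and Orm2, carriers of small molecules in plasma, each differed by -0.47, and since the genes are close copies their probes may not tell them apart. None of Hp, Orm1 and Orm2 passed without the block. Lcn2 (-0.15), Serpina3n (-0.09) and the chemokine gene Ccl2 (-0.37) did not pass. Acute-phase genes are classic targets of C/EBP factors, and the promoter of Orm2 is shown because it carries a match to the C/EBP motif TTGCNNAA. The sequence is the 250 bases before the annotated start in RefSeq on GRCm38.p6, chr4:63362199-63362448, plus strand, with the match in capitals 120 to 113 bases before the start.
Orm2: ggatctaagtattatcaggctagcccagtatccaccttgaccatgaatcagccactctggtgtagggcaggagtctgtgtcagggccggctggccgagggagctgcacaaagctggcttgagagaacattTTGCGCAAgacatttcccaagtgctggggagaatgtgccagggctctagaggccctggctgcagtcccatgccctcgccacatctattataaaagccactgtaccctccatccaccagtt
On either strand, the motif was in 3 of the 7 promoters held for that list (Lcn2, Orm2 and Ptgs2) and in 10.84% of the promoters of 27025 genes. Orm2 thus shares the match with Lcn2 and Ptgs2, which did not pass, and a match of letters shows no binding.

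Enzymes and receptors of fatty acid mediators went in both directions. Of 14 above the median, 7 were higher and 7 lower, with Ptges2, a prostaglandin E synthase, rising and Ffar4 and Hcar1 falling. Ptges2 had 9.12, 9.06 and 8.85 with both agents, all above the 8.59, 8.63 and 8.55 of control cells (0.42, SE 0.11, adjusted p = 0.525). It was lost without the passage 6 or 7 array with both agents (0.41 and 0.37) or the passage 6 control array (0.35). Hcar1, the lactate receptor that restrains lipolysis, differed by -0.38. Ptgs2, the inducible cyclooxygenase, had the largest positive difference of all genes above the median, 0.57 (95% interval 0.11 to 1.03), but did not pass. Its signals were 7.22, 6.79 and 6.51 with both agents and 5.95, 6.3 and 6.55 in control cells, a gap of over 1 unit at passage 6 and none at passage 8. Pla2g4a, the phospholipase that releases arachidonic acid from membranes, had 8.27, 8.02 and 7.69 against 7.53, 7.14 and 7.70 in control cells, with the same absence of a gap at passage 8 (0.54, not past the threshold).

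Genes of insulin action were lower where they passed. Of 17 above the median, 12 had a difference below 0 (median -0.07), and Irs1, the docking protein of the insulin receptor (-0.34, SE 0.10), and Igf1, insulin-like growth factor 1 (-0.37, SE 0.12), fell. Pde3b, the phosphodiesterase through which insulin restrains lipolysis, fell by 0.37 on the log2 scale (SE 0.11) and was the single gene to pass among 12 of lipolysis and lipid droplets (median -0.04). Slc2a4, the insulin-responsive glucose transporter, differed by 0.12 and did not pass. The calls for Irs1, Pde3b and Hcar1 were lost on leaving out any 1 of the 6 arrays compared, with differences of -0.37 to -0.31 for Irs1, -0.39 to -0.32 for Pde3b and -0.40 to -0.34 for Hcar1. The call for Igf1 was lost on leaving out any but the passage 8 array with both agents, with differences of -0.42 to -0.32. None of Irs1, Pde3b, Hcar1 and Igf1 passed without the passage block.

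The 14 genes that rose most shared no list beyond single members. All genes that rose made up 0.239% of the genes above the median, where 0.498% of all clusters were higher past the threshold. Rfc5, a subunit of the clamp loader of DNA replication, had 6.28, 6.68 and 6.72 with both agents and 5.92, 5.98 and 6.31 in control cells. It is among the genes described only through their level with both agents, where it averaged 6.56 against 6.07 in control cells and an array median of 6.20 (0.49, SE 0.11, adjusted p = 0.46). Rfc5 was lost without the passage 7 array with both agents (0.36). P2rx3, an ATP-gated channel, had 10.64, 10.57 and 10.37 with both agents, all above the 10.05, 10.12 and 10.06 of control cells (0.45, SE 0.10, adjusted p = 0.426). Acaa1a, a thiolase of peroxisomal fatty acid oxidation, had 9.71, 9.63 and 9.43 with both agents, all above the 9.34, 9.21 and 9.10 of control cells (0.37, SE 0.09, adjusted p = 0.46). P2rx3 and Acaa1a were the only ones of the 14 whose call held on leaving out each of the 6 arrays compared. The rest were Gk5 (a glycerol kinase relative, 0.45), Scyl3 (a kinase-like protein, 0.44), Adprm (a diphosphatase of ADP-ribose, 0.42), Mpp6 (a membrane scaffold, 0.39), Ctu1 (an enzyme that thiolates transfer RNA, 0.39), Fig4 (a lipid phosphatase of endosomes, 0.39), Borcs6 (part of a complex that positions lysosomes, 0.39), Eif5a2 (a translation factor, 0.37), Ndufb8 (a subunit of respiratory complex I, 0.37), Ptges2 and Slc7a11. Without the passage block Rfc5, Gk5, Mpp6, Ctu1, Fig4, Eif5a2, Ndufb8 and Slc7a11 did not pass. Without the array of both agents from passage 7, 19 of the 44 named genes that passed, in both directions, still did, the fewest for any 1 array, and 23 did without the passage 6 control array.

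Slc7a11, the cystine importer that supplies glutathione synthesis, had 7.18, 7.19 and 7.39 with both agents against 6.50, 6.71 and 7.16 in control cells. The groups did not overlap, but the highest control array lay just below the lowest with both agents. The difference was 0.46 (SE 0.13, adjusted p = 0.614). Slc7a11 did not pass on leaving out any 1 of the 3 arrays with both agents or the passage 6 or 7 control array, with differences of 0.32 to 0.46. Slc7a11 belongs to the integrated stress response, in which the factor ATF4 raises amino acid transporters and synthetic enzymes when cells lack amino acids or meet stress. Of 24 genes of that response above the median, 23 had a difference above 0, with a median of 0.16 against 0.01 over all genes, but Slc7a11 alone passed. Asns, asparagine synthetase, had 12.16, 12.00 and 11.96 with both agents, all above the 11.91, 11.87 and 11.87 of control cells, a difference of 0.15 (95% interval -0.05 to 0.36). Atf4 itself differed by 0.13, Ddit3 by 0.26, Ppp1r15a by 0.29 and Trib3 by 0.25. The mean signal of the 24 genes was 9.87, 9.79 and 9.72 with both agents and 9.62, 9.65 and 9.61 in control cells, so the groups did not overlap for the mean either. The genes of a response vary together, so the count of 23 does not stand for 23 separate observations.

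The chaperones of the endoplasmic reticulum lay on the same side. Of 16 above the median, 14 had a difference above 0 (median 0.12), and 9 differed alike in all 3 passages. The list median was 0.16, 0.12 and 0.03 at passage 6, 7 and 8, so little of it remained at passage 8. Sdf2l1, a partner of the chaperone BiP, rose. It had 8.75, 8.81 and 8.44 with both agents and 8.33, 8.39 and 8.26 in control cells, with no overlap (0.34, SE 0.10, adjusted p = 0.633). The call for Sdf2l1 was lost on leaving out any but the passage 8 array with both agents, with differences of 0.30 to 0.39, and it was lost without the passage block. Herpud1, a component of endoplasmic reticulum degradation, had 11.06, 11.06 and 11.02 with both agents against 10.68, 10.88 and 10.91 in control cells, again with no overlap, and did not pass (0.22, 95% interval 0.02 to 0.43). Hspa5, which encodes BiP, differed by 0.15, and Xbp1, a regulator of the same response, by 0.03. All 16 cytosolic ribosomal protein genes above the median had a difference above 0, from 0.02 to 0.31 with a median of 0.12, and none passed. Their mean signal was 11.18, 11.11 and 10.96 with both agents, against 10.98, 10.92 and 10.96 in control cells, with no gap at passage 8.

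The promoters of Slc7a11, Herpud1 and Hspa5 are shown because they hold the elements through which these responses are known to be controlled. Each sequence is the 250 bases before the annotated start, from RefSeq on GRCm38.p6, and capitals mark the matches. For Slc7a11 (chr3:50443614-50443863, minus strand) they mark the element TGATGNAA that ATF4 with a C/EBP partner binds, found 66 to 59 and 47 to 40 bases before the start on opposite strands. For Herpud1 (chr8:94386179-94386428, plus strand) they mark the second endoplasmic reticulum stress element, ATTGG and CCACG with 1 base between, 52 to 42 bases before the start. For Hspa5 (chr2:34771840-34772089, plus strand) they mark the first such element, CCAAT and CCACG with 9 bases between, 65 to 47 bases before the start.
Slc7a11: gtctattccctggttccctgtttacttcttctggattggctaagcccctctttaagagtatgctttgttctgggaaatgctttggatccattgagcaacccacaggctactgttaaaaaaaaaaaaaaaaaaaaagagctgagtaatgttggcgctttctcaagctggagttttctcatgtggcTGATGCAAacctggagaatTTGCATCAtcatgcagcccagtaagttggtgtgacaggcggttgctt
Herpud1: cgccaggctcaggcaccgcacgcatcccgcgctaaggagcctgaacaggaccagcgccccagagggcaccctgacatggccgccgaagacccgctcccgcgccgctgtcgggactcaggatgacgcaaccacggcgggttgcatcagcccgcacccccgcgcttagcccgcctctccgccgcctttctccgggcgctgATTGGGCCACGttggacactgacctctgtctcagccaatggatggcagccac
Hspa5: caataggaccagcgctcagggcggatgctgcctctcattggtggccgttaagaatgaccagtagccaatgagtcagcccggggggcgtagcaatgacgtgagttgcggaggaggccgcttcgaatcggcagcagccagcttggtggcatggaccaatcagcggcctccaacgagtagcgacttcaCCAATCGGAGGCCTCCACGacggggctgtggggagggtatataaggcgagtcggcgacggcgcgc
On either strand, the ATF4 element was in the promoters of 6 of 21 genes of the integrated stress response (Atf3, Asns, Chac1, Slc7a11, Vldlr and Nupr1) and in 3.91% of 27025 genes. Slc7a11 also held 1 match to the C/EBP motif, which does not overlap these, and Herpud1 also held the ATF4 element, which is not marked. The first endoplasmic reticulum stress element was in 7 of 15 chaperone promoters and 0.13% of all, and the second in Herpud1 alone of the 15 and in 0.04% of all. These counts describe the letters in the windows. They show no binding and were not set against the differences, and Sdf2l1, the chaperone list's gene that rose, held neither element in its window.

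**Figure D3:**
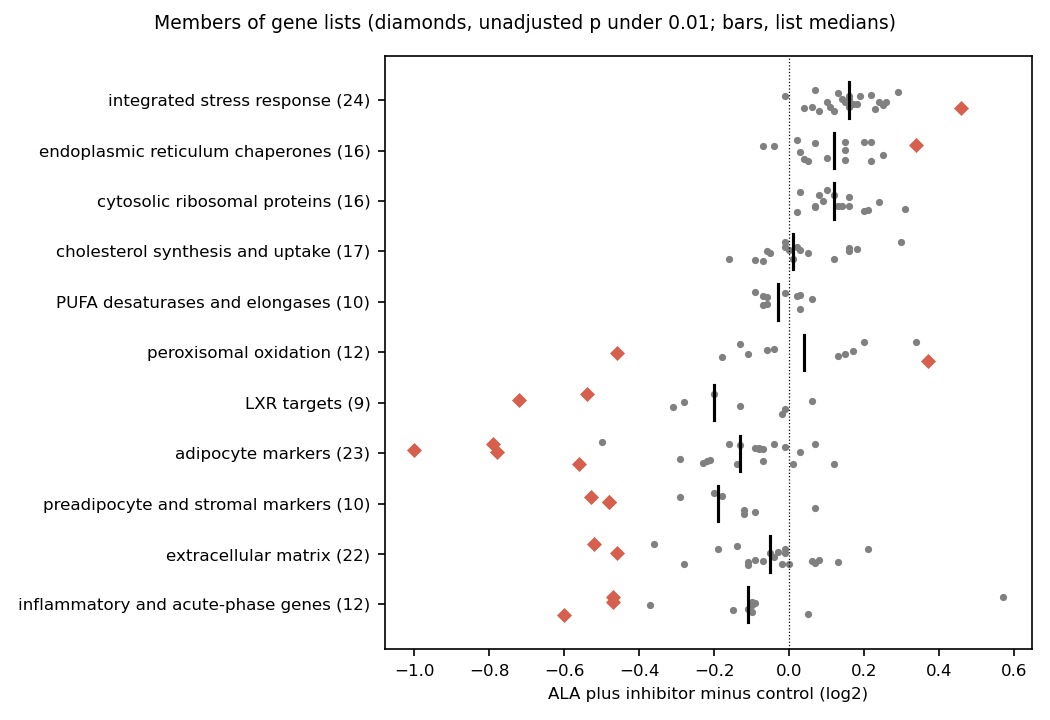
Difference between ALA plus inhibitor and control (horizontal axis, log2) for each gene above the array median in 11 gene lists, with the number of genes in parentheses, a black bar at the list median and diamonds for genes at an unadjusted p under 0.01. Integrated stress response, chaperone and ribosomal genes lie right of 0 with medians of 0.16, 0.12 and 0.12, while diamonds among LXR targets, adipocyte, stromal, matrix and acute-phase genes all lie left of 0.

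Antioxidant targets of NRF2 did not move as a list. Of 21 above the median, 14 had a difference above 0 with a median of 0.02, and Slc7a11, which is shared with the stress response, was the gene that passed. Hmox1, haem oxygenase, differed by 0.24 and Nqo1, a quinone reductase, by 0.21. Of 14 amino acid transporters, 10 had a difference above 0 (median 0.05), with Slc7a11 again the gene that rose.

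The desaturation pathway that the inhibitor acts on showed no gene past the threshold. Fads2, the gene of D6D itself, had 12.65, 12.62 and 12.64 with both agents and 12.61, 12.58 and 12.66 in control cells, a difference of 0.02 (95% interval -0.18 to 0.21). Transcript level says nothing of the enzyme's activity, which was not measured on these arrays. Fads1, the delta-5-desaturase gene, differed by 0.06 (-0.17 to 0.29), and Elovl5, the elongase between the desaturases, by -0.07 (-0.27 to 0.13). Over the 10 genes of the list above the median, the differences ran from -0.09 to 0.06.

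Sterol genes likewise gave no call. Of 17 genes of cholesterol synthesis and uptake, 9 were higher and 8 lower, with a median of 0.01, and the mean signal of the list was 10.22, 10.07 and 10.13 with both agents and 10.09, 10.01 and 10.20 in control cells. Hmgcs1, the enzyme that makes the precursor of mevalonate, differed by 0.03 (95% interval -0.17 to 0.24), and Insig1, the sterol-sensing brake on SREBP, by 0.09 (-0.11 to 0.30). Idi1, an isomerase of the pathway, had the largest difference, with 9.98, 9.88 and 10.00 against 9.45, 9.43 and 10.07 in control cells (0.30, 95% interval -0.10 to 0.70). Of 11 genes of de novo lipogenesis, 9 had a difference below 0 (median -0.06), and none passed. Scd1, the delta-9-desaturase, had 12.98, 12.99 and 13.05 with both agents, all below the 13.16, 13.15 and 13.10 of control cells, a difference of -0.13 (95% interval -0.33 to 0.07). Fasn, fatty acid synthase, differed by -0.12.

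In the list drawn up for genes that fatty acids raise through PPAR receptors, none passed. Among 12 PPAR-responsive genes above the median, 4 had a difference above 0, with a median of -0.05. Angptl4, the inhibitor of lipoprotein lipase, differed by -0.23, Pdk4, the kinase that shuts off glucose oxidation, by 0.04, and Plin2, the coat protein of lipid droplets, by -0.13. None of 17 genes of mitochondrial beta-oxidation (median -0.04), 11 of triacylglycerol synthesis (median -0.09) or 10 of fatty acid uptake and activation (median 0.05) passed. Among 12 peroxisomal genes the median was 0.04, with Acaa1a rising and Abcd2, a transporter of very long-chain acyl-CoA into the peroxisome, falling (-0.46, SE 0.11, adjusted p = 0.486). Abcd2 had 8.39, 8.27 and 9.04 with both agents and 8.73, 8.90 and 9.45 in control cells, so the groups overlap, and it was lost without the block, without the passage 7 or 8 array with both agents (-0.39 and -0.45) and without the passage 7 control array (-0.42). Oxidative phosphorylation had 17 of 25 genes above 0 (median 0.06), with Ndufb8 alone past the threshold.

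Lists of other processes held no gene that passed. They were SREBP control (median 0.09 over 5 genes), interferon-stimulated genes (-0.06 over 4), AHR targets (-0.07 over 4), p53 targets (0.02 over 13), cell cycle (0.00 over 24), glycolysis and hypoxia (-0.03 over 21), immediate early genes (-0.12 over 16), circadian clock (0.01 over 12) and heat shock (0.00 over 9). Among 14 adipokines, Nrg4 and Igf1 fell (median -0.04). Macrophage, endothelial, muscle, and osteoblast and chondrocyte lists had 2, 1, 1 and 4 genes above the median, with none past the threshold.

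The 4 groups allow the combination to be set beside each agent alone. The comparisons of ALA, the inhibitor and both with control share the control arrays, so their differences are given side by side. Pck1 averaged 8.32 with both agents, 9.49 with ALA, 8.36 with the inhibitor and 9.32 in control cells. Its level with both agents was thus close to that with the inhibitor and lower than with ALA (both minus inhibitor -0.03, 95% interval -0.45 to 0.38, and both minus ALA -1.17). Ffar4 averaged 8.91 with both agents, 9.47 with ALA, 8.71 with the inhibitor and 9.69 in control cells. For its difference between both agents and the inhibitor, 0.2 (-0.31 to 0.71), the interval is too wide to tell. Hp averaged 9.46 with both, 10.02 with ALA, 9.45 with the inhibitor and 10.06 in control cells, and its difference between both agents and the inhibitor was 0.01 (-0.22 to 0.25).

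Over the 86 genes that fell, the median difference from control was -0.49 with both agents, -0.06 with ALA and -0.37 with the inhibitor. Over the 24 that rose, it was 0.37 with both agents, 0.08 with ALA and 0.17 with the inhibitor. The genes were chosen on the first of these values, which makes it the most extreme by construction. The same side-by-side order held for several list medians, such as 0.16, 0.00 and 0.12 for the integrated stress response and -0.13, 0.00 and -0.12 for adipocyte markers. Cholesterol synthesis showed another order, with 0.01 with both agents, -0.21 with ALA and 0.19 with the inhibitor, and its mean signals were 10.14 ± 0.08 with both agents, 9.87 ± 0.12 with ALA, 10.30 ± 0.04 with the inhibitor and 10.10 ± 0.09 in control cells (SD, n = 3 arrays each).

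**Figure D4:**
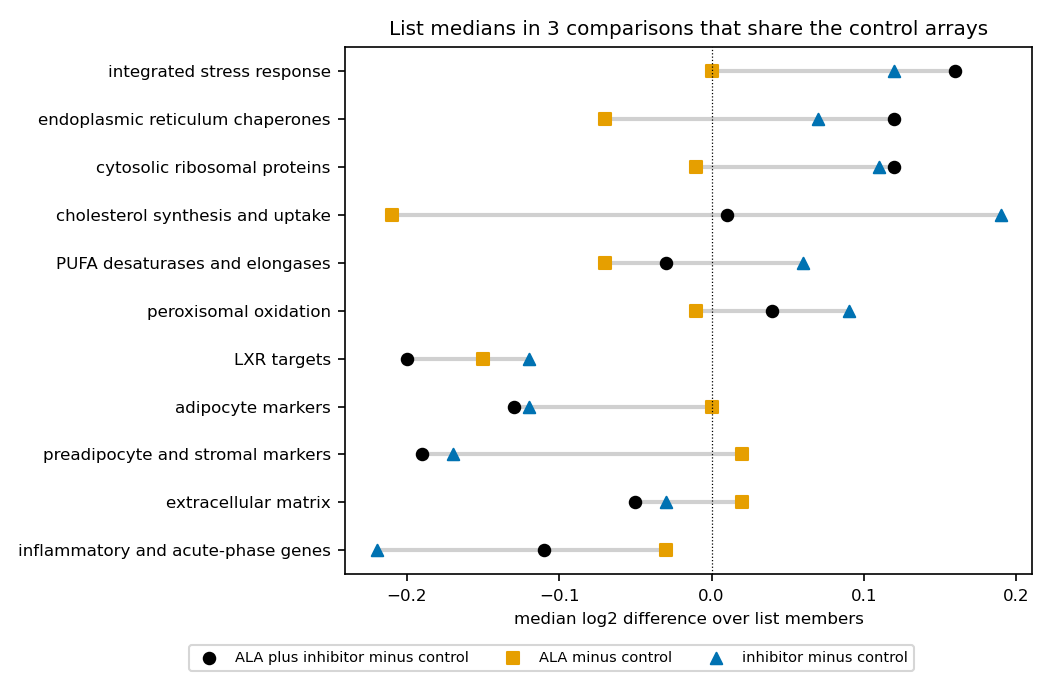
Median log2 difference over the genes above the array median in 11 gene lists (horizontal axis) for ALA plus inhibitor (circles), ALA (squares) and inhibitor (triangles), each minus the same control arrays. For cholesterol synthesis the circle at 0.01 lies between -0.21 with ALA and 0.19 with the inhibitor, and for adipocyte markers the circle at -0.13 lies beside the inhibitor at -0.12.

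The combination was also set directly against each agent over all genes above the median. Against ALA alone, 88 genes were higher and 137 lower past the threshold, 225 in all (2.24%). Of all clusters 2.54% passed, and the threshold alone would give 100 genes. The ALA array of passage 7, which stood apart from the others, enters this comparison and the ALA means directly. Its part in this count was not tested. Against the inhibitor alone 35 passed, 24 higher and 11 lower, where 1.06% of all clusters passed and the threshold alone would give 100 genes. No gene above the median passed an adjusted p under 0.05 in either limma comparison, and the smallest adjusted p was 0.185 (Car3) and 0.78 (Spata5l1). The arrays with both agents that made genes count as higher than control also enter their difference from the inhibitor. Values against the inhibitor are therefore given for some of those genes as descriptions only, without intervals. Rfc5, itself described only through its level with both agents, averaged 6.56 there, 6.44 with ALA, 6.05 with the inhibitor and 6.07 in control cells. Its difference between both agents and the inhibitor was 0.50, and those of Adprm (0.50) and Ndufb8 (0.35) were above 0 too. P2rx3 (0.02), Gk5 (-0.01) and Mpp6 (-0.03), which also rose against control, differed little from the inhibitor group. These estimates do not settle which of the genes that rose exceed the inhibitor level, since the genes were chosen on the same arrays. For Trf, whose difference from the inhibitor group was -0.25 (-0.78 to 0.28), the interval is too wide to tell.

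The interaction term tests whether the difference with both agents departs from the sum of those with each agent. Past the same threshold, 26 genes above the median were counted, where 0.936% of all clusters passed and the threshold alone would give 100 genes, and the smallest adjusted p was 0.996. Departures from additivity were therefore not detected in this design, whose median standard error of the interaction was 0.16. Car3 averaged 9.28 with both agents, 10.72 with ALA, 9.29 with the inhibitor and 10.08 in control cells. ALA alone differed from control by 0.64, the inhibitor by -0.78 and both agents by -0.79, an interaction of -0.65 that did not pass. Apoc1 averaged 8.69 with both agents, 8.79 with ALA, 8.84 with the inhibitor and 9.41 in control cells, and its interaction of 0.47 did not pass either. Each agent alone differed from control by nearly as much (-0.63 and -0.57) as both together (-0.72). The 4 genes with the smallest p and an interaction above 0 were Egfl8 (0.97), Abtb1 (0.72), Gys2 (0.58), the liver form of glycogen synthase, and Gbp8 (0.75). Those below 0 were Cyb5rl (-0.67), Zscan12 (-0.64), Coq6 (-0.53), an enzyme of ubiquinone synthesis, and Arsj (-0.47), a sulfatase relative. All 8 had adjusted p-values of 0.996, and of the 8 Arsj alone passed between both agents and control (-0.30).

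**Figure D5:**
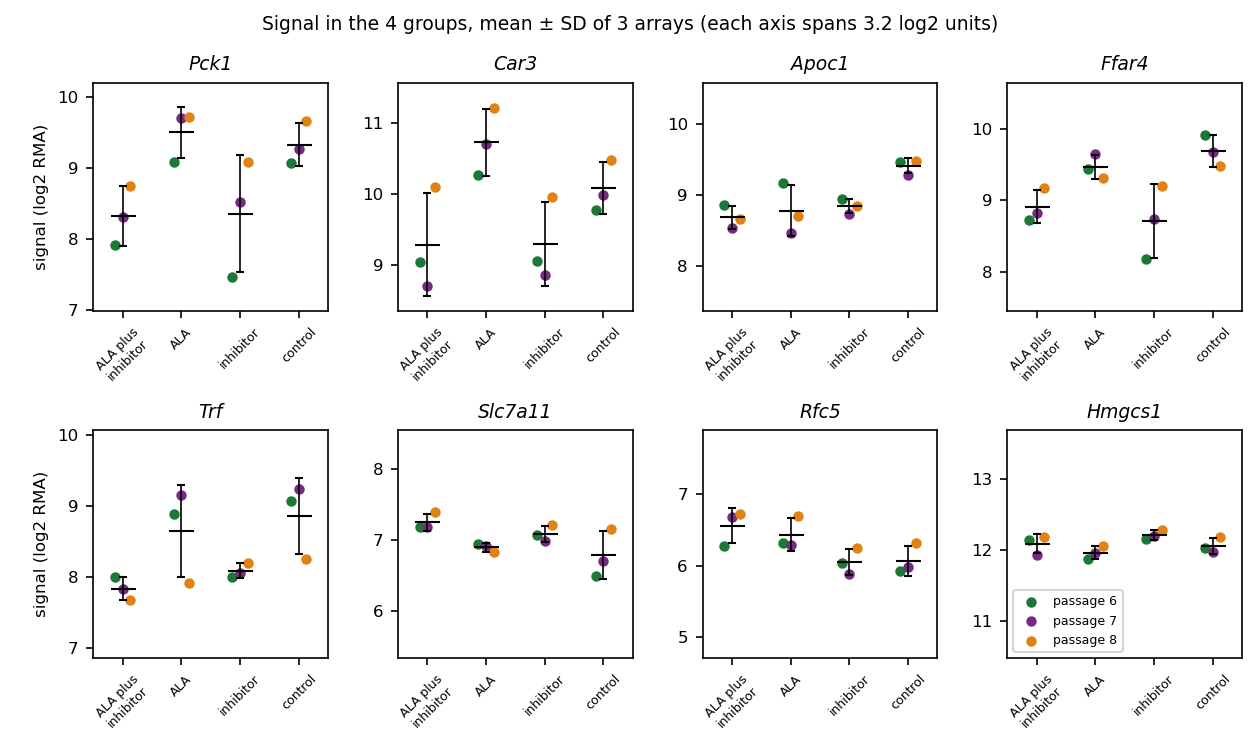
Log2 RMA signal of 8 genes in the 4 groups (points, arrays coloured by passage; bars, mean ± SD of 3 arrays), with ALA plus inhibitor at the left and control at the right. Pck1 and Car3 have similar means with both agents and with the inhibitor, and Ffar4 has 8.91 and 8.71. Apoc1 is lower than control in each treated group, and Hmgcs1 stays within a narrow range. Rfc5, described only through its level with both agents, averaged 6.56 there, 6.44 with ALA, 6.05 with the inhibitor and 6.07 in control cells.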

How the data were processed

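The deposited values were log2 signals, 1 per transcript cluster and array, made by the authors with RMA per the submitters' processing notes, which corrects background, normalizes across arrays and summarises probes. RMA can move dim signals toward a common floor and so understate differences of dim genes, which was not tested here. Differences of dim genes were also less precise, with a median standard error of 0.17 below the array median against 0.12 above it. Neither the software nor the version nor the library file is given in the sources used here. There is no read depth, and precision is limited by how many arrays there are.

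The treatment in the labels set each sample's group. Gene symbols came from GEO's platform annotation, which named 19509 clusters with 1 symbol and left 2595 unnamed here. All 19509 had an ID in the RefSeq gene table. A gene with several clusters (29 further clusters) was represented by the brightest. Probe positions were not used here.

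One linear model with a coefficient for each of the 4 treatments and the passage as a block was fitted to all 12 arrays and 22104 clusters with limma 3.58.1 in R 4.3.3, followed by eBayes (6 residual and 3.96 prior degrees of freedom). Tests were two-sided, and Benjamini-Hochberg adjustment ran over all clusters. The block was used because the comparison is paired by passage and the passages pair the arrays: deviations from the group means correlated at 0.33, 0.26 and 0.41 for arrays of the same passage, against -0.42 to 0.19 for arrays of different passages. The fit was tested on simulated data.

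The genes named were the 14 higher and 14 lower with the largest difference among those that passed and differed alike in all 3 passages, a fixed set of lipid, adipocyte and stress genes, up to 4 genes with the smallest p in each of 39 lists, and 4 for the interaction in each direction. Other list members are named as examples chosen after their values were seen. The members and lists were chosen with earlier results of these data known. Some list members were not analysed here. List counts carry no test. Alternatives covered the block, the arrays in the fit, scaling, the variance prior, array weights, filters and leaving out arrays, those with 1 agent alone among them after seeing the data, except for the ALA array of passage 7. Promoters came from a RefSeq table on GRCm38.p6.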

Additional observations from a re-analysis of the deposited data

How the results depend on the processing

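Lower genes outnumbered higher genes in all 26 settings, which refit the same arrays. All 44 named genes that passed kept their direction in the 25 alternatives. They already differed alike in all 3 passages, so this was largely set in advance and nothing is read from it. Of the 44, 4 (Apod, B3galt2, Apoc1 and Cyp2f2) stayed past the threshold in each alternative. Without the replicate block by passage, 29 genes passed, 7 higher and 22 lower, and 10 for the interaction, and 15 of the 44 named genes remained past the threshold. With only the 6 arrays compared, 12 higher genes passed. With an intensity trend in eBayes, 235 genes passed (75 higher and 160 lower), 50 for the interaction, and 14 clusters passed an adjusted p under 0.05. With array weights the numbers were 241 (88 and 153), 52 and 1, and with only clusters above the median fitted 200 (61 and 139), 68 and 2. Above the 75th percentile of signal there were 46 (9 and 37), and 6 for the interaction. Leaving out 1 array, or 1 passage from every group, gave totals of 43 to 168, higher genes of 1 to 58, lower genes of 35 to 110 and interactions of 10 to 50. Over 1.5-fold moves came without passage 6 (70, 11 higher) or 7 (51, 6 higher and 45 lower) with both agents, passage 6 (56, 6 and 50) or 7 (66, 14 and 52) of control and passage 7 of ALA (168, 58 higher). Higher genes alone moved as far without passage 8 with both agents (47) or passage 7 or 8 of the inhibitor (14 and 15). Interactions did so without passage 7 with both agents (16), passage 6 of ALA (50) or passage 7 of control (11). Without passage 6, 7 or 8 in every group, the totals were 43 (1 and 42), 43 (8 and 35) and 61 (42 lower), with 11, 12 and 10 interactions. Centring arrays on their medians gave 98 genes (31 and 67) and quantile normalization 115 (26 and 89). The causes were not tested. With 3 arrays a group and a median standard error of 0.12, small differences cannot be told from 0.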

Other observations

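Several groups were drawn up after the values were seen, so their counts are descriptions. Among the 10026 genes above the median, 0.858% fell past the unadjusted threshold. Of 8 small leucine-rich proteoglycans above the median, which organise collagen fibrils, all had a difference below 0 with both agents against control (median -0.37), and Fmod, Dcn, Lum and Ogn passed the unadjusted threshold. Fmod lay above the array median only through control. The other 7 had a median of -0.28, and 3 of them passed. Bgn (-0.02) and Aspn (-0.04), which belong to the same family, differed little. The median of the 8 was -0.01 with ALA alone and -0.30 with the inhibitor alone, against the same control arrays. Of 7 apolipoprotein genes above the median, all had a difference below 0 (median -0.61), and Apod, Apoc1, Apoa4 (-0.64) and Apol6 (-0.61) passed. Of 8 MAP kinase phosphatases, which switch off growth factor signals, Dusp4 (-0.44) and Dusp6 (-0.46) passed, while the list's median was -0.10.

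Genes below the array median passed more often. Of 9454 such genes, 177 had an unadjusted p under 0.01 (70 higher and 107 lower), against 95 that the threshold alone would give, and 714 had a p under 0.05, against 473. None passed an adjusted p under 0.05 in the limma fit, and the smallest was 0.368 (Itgbl1). With an intensity trend in eBayes, which lets bright clusters have a smaller prior variance, the clusters at an adjusted p under 0.05 were Apod, Cyp2f2, Apoc1, Hp, B3galt2, Pck1, Acta2, Antxr1, Pltp, Car3, Dcn and Osr2, all lower with both agents, P2rx3, which was higher, and 1 unnamed cluster below the array median (-1.19). Their adjusted p-values ran from 4.7e-04 for Apod to 0.049 for the unnamed cluster.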
